A study of Mus musculus with 12 samples.

Results

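The costimulatory and adhesion surface protein genes Cd40, Cd80, Cd86, Cd274, Icosl, Icam1, Vcam1 and Cd69 were followed through an RNAseq experiment in RAW264.7 cells, a mouse macrophage line whose labels give the strain as BALB/c. Members were chosen by gene symbol. All 8 had a row among the 38215 genes of the count table, and 7 passed the filter on low counts, which left 14983 genes for testing. Cells received either control non-targeting siRNA or siRNA against SF3a1, a subunit of the SF3a complex of the spliceosome, and 24 h later were left without LPS or exposed to 20 ng/ml LPS, the bacterial endotoxin sensed by TLR4, for 4 h. Each of the 4 combinations of siRNA and LPS had 3 libraries. Every group is the same transformed line, all cells were nucleofected, and SF3a1 was lowered rather than removed. Reads counted on genes ranged from 12746019 to 41091887 per library.

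A macrophage displays to T cells both antigen and a second set of surface signals. Cd80 and Cd86 bind Cd28 and Ctla4, Icosl binds Icos, Cd274 (also called PD-L1) binds the inhibitory receptor Pdcd1, and Cd40 receives the Cd40lg signal back from the T cell. Icam1 and Vcam1 hold leukocytes in place by binding integrins, and Cd69 is an early activation antigen that binds S1pr1 and keeps it off the surface. Transcription of many of these genes is known to be switched on by NF-kappaB and interferon signalling after LPS.

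Sequences upstream of the transcription start are shown as a description, with motifs that transcription factors are known to bind. The part of such factors in the LPS response of the members was not tested. RefSeq promoter windows (GRCm38.p6, the same assembly as the mm10 coordinates of the counts) were held for 4 of the 8 members. Cd40, Cd86, Vcam1 and Cd69 had no entry. The Cd274 window lies mostly over an exon of Plgrkt, a gene on the other strand, and is not printed. Up to 250 bases before the start are given 5′ to 3′ on the plus strand, stopping at the annotated exon, with matches on either strand in capitals. The motifs were kappaB (GGG and CC with 5 bases between), GAS (TTC and GAA with 3 bases between), ISRE (GAAA and GAAA with 2 bases between) and AP-1 (TGANTCA).
Icam1, chr9:21015690-21015939: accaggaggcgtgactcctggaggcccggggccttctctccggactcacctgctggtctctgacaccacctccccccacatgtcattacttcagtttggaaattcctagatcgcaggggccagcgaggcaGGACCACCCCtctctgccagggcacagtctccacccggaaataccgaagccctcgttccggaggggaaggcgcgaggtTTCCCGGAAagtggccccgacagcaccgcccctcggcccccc
Cd80, chr16:38458683-38458932: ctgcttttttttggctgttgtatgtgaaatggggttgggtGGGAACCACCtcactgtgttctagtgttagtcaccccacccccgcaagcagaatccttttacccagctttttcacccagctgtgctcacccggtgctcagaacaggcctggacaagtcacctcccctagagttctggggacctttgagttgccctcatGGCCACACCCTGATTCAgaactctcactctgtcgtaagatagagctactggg
Icosl, chr10:78069118-78069301: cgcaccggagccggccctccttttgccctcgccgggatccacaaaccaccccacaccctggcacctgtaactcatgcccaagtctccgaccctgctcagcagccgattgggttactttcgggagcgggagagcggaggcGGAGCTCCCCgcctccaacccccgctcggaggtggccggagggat
The Icam1 window held 1 kappaB match and 1 GAS match. In Cd80 there were 2 kappaB matches with 1 AP-1 match directly after the second, and this window lies in an intron of a longer Cd80 transcript. The 184 bases of Icosl held 1 kappaB match. No matches overlapped. Of 32851 RefSeq windows of 250 bases, 45.8% held a kappaB match, 7.02% a GAS match, 2.98% an ISRE match and 6.75% an AP-1 match, and over 184 bases the kappaB share was 34.1%. The kappaB letters are common, and a match of any of these motifs is a description of the sequence only. A site spelled otherwise is left in lower case, so the capitals need not mark the sites that factors use.

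The siRNA target was lowered as labelled. Sf3a1 levels in CPM (counts scaled to the TMM-adjusted library size) were 173, 216 and 185 with control siRNA and 27.1, 27.5 and 32.1 with SF3a1 siRNA in the absence of LPS, so that 15.1% of the control level remained. In the presence of LPS the values were 150, 194 and 157 against 30.3, 26.7 and 45.0, leaving 20.3%. Log2 fold changes were -2.73 ± 0.20 (SE, adjusted p = 1.14e-05) and -2.30 ± 0.20 (adjusted p = 1.47e-05), n = 3 per group. Here and throughout, a change was called at an adjusted p of 0.1 or less in edgeR's quasi-likelihood test over all 14983 genes, and errors on log2 fold changes are standard errors. The LPS response was checked with Tnf, which rose from a mean of 35.4 ± 5.6 CPM to 1448 ± 674 CPM (SD, n = 3) with control siRNA. The cells carried macrophage markers, with Lyz2 the most abundant of the macrophage list in every library and Csf1r and Cd68 also high. Mertk and Mrc1, markers of some tissue macrophages, were below 2 CPM in every group mean. With LPS and control siRNA 7 of the 10 were called higher and 1, Csf1r, lower (-1.04, adjusted p = 1.17e-04). Of all tested genes 13.8% were called higher and 18.3% lower for LPS. Mrc1, 1 of the 7, passed the filter on low counts only through LPS libraries, which fixed its rise. With SF3a1 inhibition in the presence of LPS, Csf1r (0.69, adjusted p = 0.00248), Spi1 (0.61, adjusted p = 0.0101) and Mertk (2.01, adjusted p = 0.00905) were called higher, the last having passed the filter on low counts only through SF3a1 siRNA libraries, and Adgre1 (-0.71, adjusted p = 0.0765) and Fcgr1 lower. In that comparison 18.4% of all tested genes were called higher and 20.4% lower, near the shares of this list. Fcgr1, an IgG receptor, went with control siRNA from 64.1 ± 11.6 to 455 ± 96 CPM with LPS (2.83, adjusted p = 1.54e-06), and with SF3a1 siRNA and LPS it stood at 49.4 ± 8.6 CPM (-3.20, adjusted p = 6.14e-06). Summed over its 10 genes the list stood between 9740 and 16355 CPM. Of the T cell list, Cd3e, Cd3g, Cd3d and Cd4 had 4, 2, 3 and 5 counts over all 12 libraries and Cd8a had 0. That list summed to 1.81 to 13.8 CPM per library, with Lck, a kinase of T cell receptor signalling, its most abundant gene in each. With control siRNA, Lck rose with LPS from 2.26 ± 0.44 to 12.1 ± 1.9 CPM (SD, n = 3; log2 2.43, adjusted p = 4.46e-05). B cell, NK cell, fibroblast and endothelial lists summed to less than 2 CPM in every library. The dendritic cell list summed to 7.58 to 70.6 CPM, with Itgax, which macrophages also express, its most abundant gene in every library. Zbtb46, a dendritic cell transcription factor, averaged 1.76 ± 0.40 CPM with control siRNA and 0.771 ± 0.288 CPM once LPS was added. Xcr1, a chemokine receptor of cross-presenting dendritic cells, went from 0.0371 ± 0.0347 to 1.13 ± 0.26 CPM (4.56, adjusted p = 0.00161), having passed the filter on low counts only through LPS libraries. Flt3, Ccr7 and Clec9a were below 1 CPM in every group mean. All 12 libraries are of the RAW264.7 line, and these lists were read as a description of its transcripts. Cell composition was not tested.

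**Figure D1:**
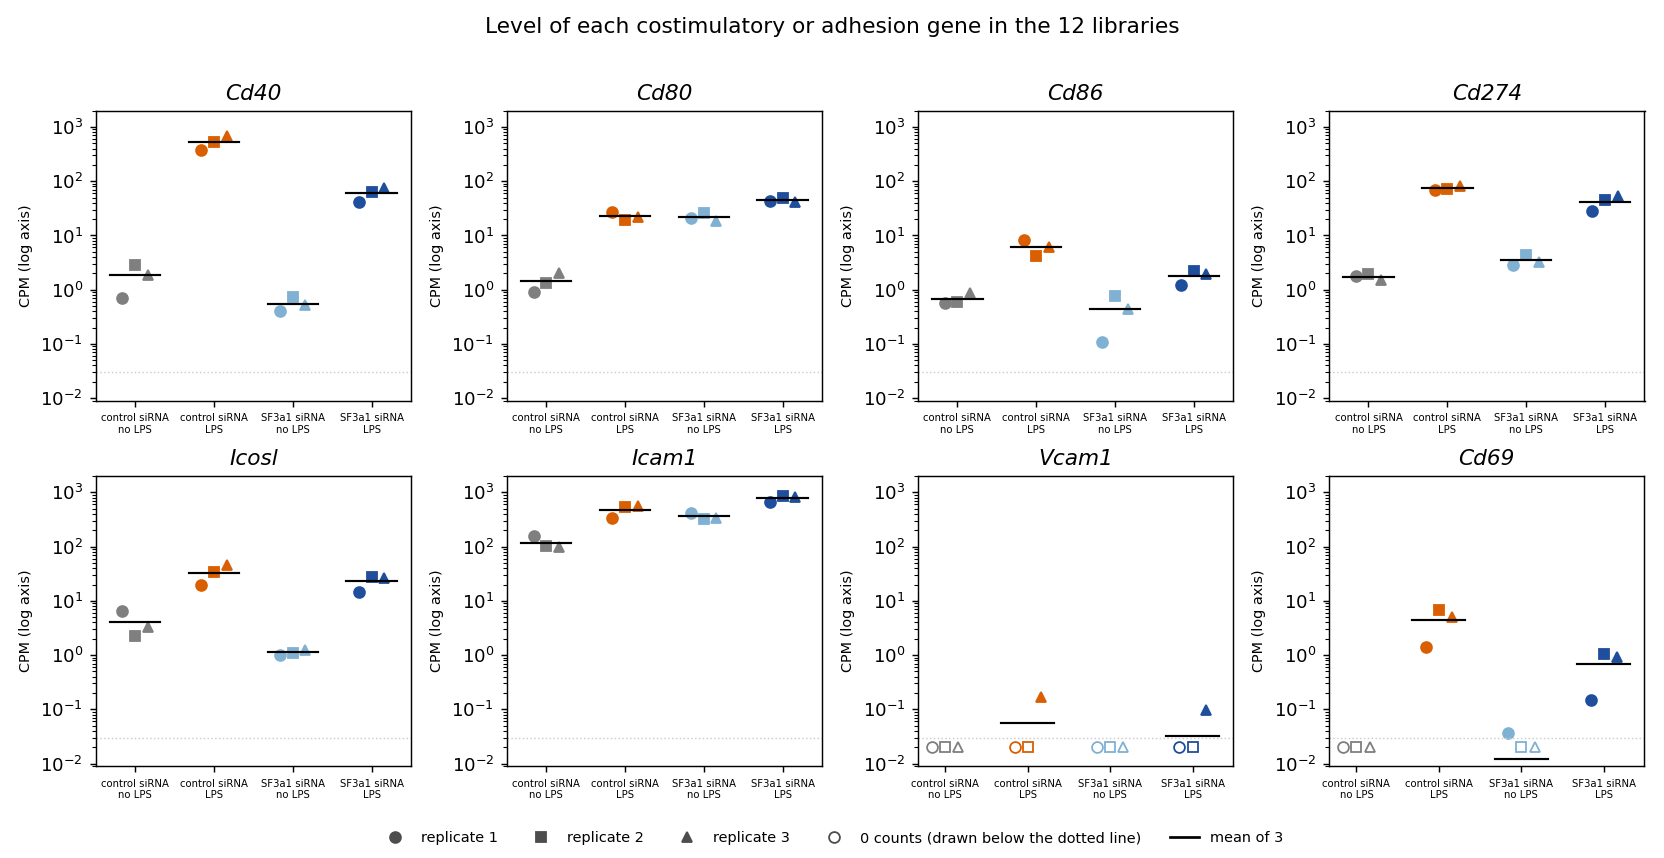
Level of each gene in CPM on a log axis for the 4 groups, with 1 point per library and a line at the group mean. Open points at the bottom are libraries with 0 counts. Of the genes with counts in every library, Cd40 spans the widest range of means, from a mean of 0.548 to 524 CPM, whereas Cd80 and Icam1 were highest in cells given both SF3a1 siRNA and LPS.

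The question of the first comparison was how LPS alone moves these genes. With control siRNA, 7 of 7 tested members rose, where 13.8% of all tested genes were called higher, 18.3% lower and 32.1% in either direction. Cd69 passed the filter on low counts only through LPS libraries, so its rise was fixed and carries no weight in that count. Cd40, the receptor for Cd40lg, had the largest change of the members with counts in both groups, and Icam1, the ligand of beta2 integrins, the smallest. Compared per length, as CPM per kilobase of exon (RPKM), Icam1 led the members before LPS at 27.3 ± 7.8 and each other member was below 1. After LPS the order by mean RPKM was Cd40 at 154 ± 44, Icam1 at 109 ± 28, Cd274 at 20.5 ± 2.1, Icosl at 7.21 ± 2.77, Cd80 at 6.18 ± 1.05, Cd86 at 1.67 ± 0.53 and Cd69 at 0.678 ± 0.422 (SD, n = 3). Within that order Cd40 and Icam1 lay within their spread of each other, as did Icosl and Cd80. Lengths were merged GENCODE exons, an annotation other than the one used for counting. It gave more exon pieces than were counted for Cd80 (10 against 5), Icosl (12 against 7), Icam1 (8 against 7) and Cd69 (12 against 5). The order therefore holds for these lengths only. In bulk RNA such as this, fewer cells carrying a transcript and less RNA per cell cannot be told apart.

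The second question was what SF3a1 inhibition does to them. In the absence of LPS 3 members rose (Cd80, Cd274, Icam1) and 2 fell (Cd40, Icosl), against 13.7% of all tested genes called higher, 20.1% lower and 33.8% in either direction. In the presence of LPS 2 rose (Cd80, Icam1) and 4 fell (Cd40, Cd86, Cd274, Cd69), against 18.4% higher, 20.4% lower and 38.8% in either direction. Cd69 passed the filter only through control siRNA libraries with LPS, so its fall was fixed and 3 falls are left to set against that share. SF3a1 inhibition therefore did not move the genes one way. LPS still raised all 7 in cells given SF3a1 siRNA, the rise of Cd69 again being fixed by the filter. Of all tested genes 6.6% were called higher there, 4.06% lower and 10.7% in either direction. The last share is 1598 genes, and 3115 were called once a block for the replicate was fitted. The LPS effect differed between the siRNAs for 2 members, Cd80 and Cd274, both with a smaller LPS effect under SF3a1 siRNA, by the interaction term that called 3.47% of all tested genes (1.54% higher, 1.94% lower). With the replicate block 1756 genes were called for it in place of 520, and 980 of them, the larger part, were higher. The comparisons share groups, so they are not independent of each other.

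**Figure D2:**
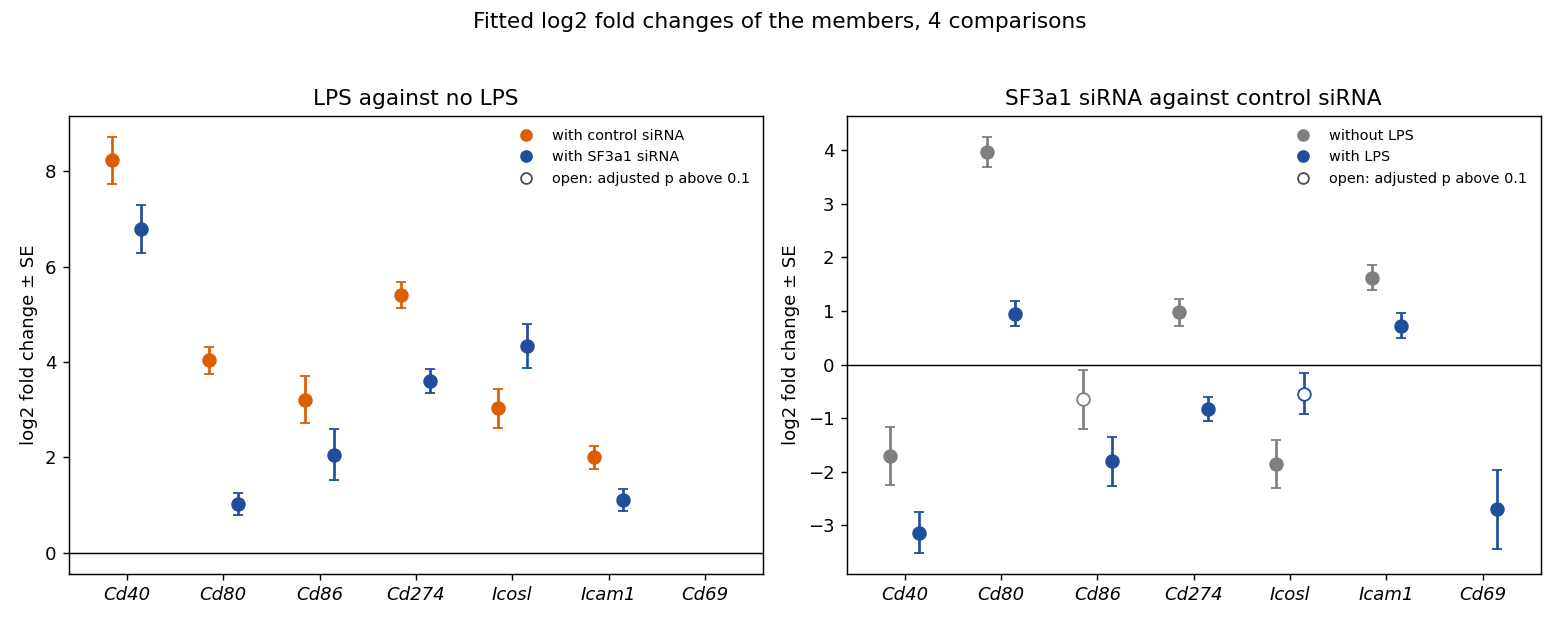
Log2 fold change with its standard error for LPS against no LPS (left) and SF3a1 siRNA against control siRNA (right), with filled points called and open points not called. All LPS effects are above 0, while the siRNA effects fall on both sides of 0. Cd69 is drawn only where both groups had more than a few counts.

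Cd40 lies at chr2:165055627-165072948 on the plus strand. Its CPM were 0.71, 2.90 and 1.87 with control siRNA and 374, 522 and 676 once LPS was added. With SF3a1 siRNA they were 0.401, 0.724 and 0.520 without LPS and 41.8, 64.1 and 73.5 with it. Every library with LPS was therefore far above every library without, yet the highest of the SF3a1 siRNA libraries with LPS stayed well below the lowest of the control ones. LPS raised Cd40 299-fold with control siRNA (log2 8.23 ± 0.49, adjusted p = 1.31e-07) and 111-fold with SF3a1 siRNA (6.79 ± 0.51, adjusted p = 3.58e-06). In the presence of LPS, SF3a1 inhibition lowered it 8.77-fold (-3.13 ± 0.38, adjusted p = 1.03e-04), leaving 11.4% of the control mean. In the absence of LPS the change was -1.70 ± 0.54 (adjusted p = 0.0342), but the groups overlapped by 1 library, the counts were low, at 31 over the 3 SF3a1 siRNA libraries, and the call was lost without control siRNA replicate 2 (-1.10, adjusted p = 0.162) or without SF3a1 siRNA replicate 1 (-1.45, adjusted p = 0.13). The interaction was -1.43 ± 0.68 (adjusted p = 0.403) and was called once the replicate number was added to the fit as a block (-1.55, adjusted p = 0.0490) and with no filter on low counts (-1.41, adjusted p = 0.0231).

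Cd80 (chr16:38455561-38496335, plus strand) moved in the opposite direction under SF3a1 siRNA. With control siRNA its CPM were 0.894, 1.34 and 2.04 without LPS and 27.2, 19.5 and 21.9 with it. With SF3a1 siRNA they were 20.8, 26.2 and 18.4 without LPS and 43.5, 48.4 and 41.4 with it. Unstimulated cells with lowered SF3a1 thus carried about the Cd80 level of LPS-treated control cells, and those libraries overlapped. SF3a1 inhibition raised Cd80 15.6-fold in the absence of LPS (3.97 ± 0.28, adjusted p = 1.07e-05) and 1.94-fold in its presence (0.95 ± 0.24, adjusted p = 0.00908). LPS raised it 16.4-fold with control siRNA (4.04 ± 0.28, adjusted p = 4.46e-07) but 2.04-fold with SF3a1 siRNA (1.03 ± 0.24, adjusted p = 0.0194). The difference between these LPS effects was -3.01 ± 0.36 (adjusted p = 0.00189).

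Cd86, the other ligand of Cd28 and Ctla4 (chr16:36603869-36666081, minus strand), was scarce and did not follow Cd80. Its CPM with control siRNA were 0.573, 0.580 and 0.851 without LPS and 8.10, 4.21 and 6.06 with it. With SF3a1 siRNA they were 0.109, 0.780 and 0.446, then 1.21, 2.17 and 1.97 with LPS. The 2 groups with LPS did not overlap, whereas those without it did. LPS raised Cd86 9.24-fold with control siRNA (3.21 ± 0.49, adjusted p = 3.59e-04) and 4.16-fold with SF3a1 siRNA (2.05 ± 0.54, adjusted p = 0.0352). SF3a1 inhibition lowered it 3.48-fold in the presence of LPS (-1.80 ± 0.46, adjusted p = 0.0102), and the change was not called in its absence (-0.65 ± 0.55, adjusted p = 0.439). The latter value ran from -1.43 to -0.08 as each library was left out, and none of the 12 omissions called it. The call for LPS with SF3a1 siRNA was lost narrowly when SF3a1 siRNA with LPS replicate 2 or SF3a1 siRNA without LPS replicate 3 was left out, with adjusted p values of at most 0.105, and the value rose to 7.22-fold without SF3a1 siRNA without LPS replicate 2.

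Cd274 (chr19:29367455-29388095, plus strand), which delivers the inhibitory Pdcd1 signal, changed direction with the stimulus. Its CPM were 1.79, 1.96 and 1.49 with control siRNA and 2.88, 4.29 and 3.20 with SF3a1 siRNA in the absence of LPS. In the presence of LPS they were 68.1, 72.1 and 82.6 against 28.5, 44.8 and 52.5. Neither pair of groups overlapped, and the order was reversed between them. SF3a1 inhibition raised Cd274 1.97-fold without LPS (0.98 ± 0.25, adjusted p = 0.0127) and lowered it 1.77-fold with LPS (-0.83 ± 0.22, adjusted p = 0.0120). LPS raised it 42.4-fold with control siRNA (5.40 ± 0.27, adjusted p = 2.99e-08) and 12.1-fold with SF3a1 siRNA (3.60 ± 0.25, adjusted p = 1.95e-06), a difference of -1.80 ± 0.33 (adjusted p = 0.0182). An antisense gene overlaps Cd274 in the annotation. It had no row in the count table, and whether the counting used strand is not stated.

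Icosl (chr10:78069302-78083913, plus strand) showed its siRNA difference in unstimulated cells. Its CPM with control siRNA were 6.48, 2.28 and 3.23, and with SF3a1 siRNA they were 1.02, 1.11 and 1.26. LPS brought these to 19.8, 34.8 and 45.3 and to 14.3, 27.6 and 26.7. The unstimulated groups did not overlap, although control replicate 1 stood above the others, and the stimulated groups overlapped. SF3a1 inhibition lowered Icosl 3.62-fold without LPS (-1.85 ± 0.45, adjusted p = 0.00868), or 2.29-fold when control replicate 1 was left out (-1.20, adjusted p = 0.0568), and the change with LPS was not called (-0.54 ± 0.38, adjusted p = 0.316). LPS raised it 8.17-fold with control siRNA (3.03 ± 0.41, adjusted p = 1.38e-04) and 20.3-fold with SF3a1 siRNA (4.34 ± 0.46, adjusted p = 5.88e-05), the only member with a larger value under SF3a1 siRNA among the 6 tested members with counts in every group, and the difference between those effects was not called (1.31 ± 0.58, adjusted p = 0.355) except with no filter on low counts (1.35, adjusted p = 0.0390).

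Icam1 (chr9:21015985-21028817, plus strand) was abundant in every library. Its CPM with control siRNA were 158, 101 and 97.7, rising to 335, 534 and 561 with LPS. With SF3a1 siRNA they were 423, 329 and 344, rising to 670, 860 and 838. As for Cd80, the SF3a1 siRNA libraries were the higher ones at both conditions and did not overlap the matching controls. SF3a1 inhibition raised Icam1 3.07-fold without LPS (1.62 ± 0.23, adjusted p = 3.70e-04) and 1.65-fold with LPS (0.73 ± 0.23, adjusted p = 0.0298). LPS raised it 4.01-fold with control siRNA (2.00 ± 0.24, adjusted p = 4.53e-05) and 2.16-fold with SF3a1 siRNA (1.11 ± 0.23, adjusted p = 0.00986). The difference of -0.89 ± 0.32 between the LPS effects was not called (adjusted p = 0.221). It was called with no filter on low counts (-0.86, adjusted p = 0.0834), without control siRNA with LPS replicate 1 (-1.09, adjusted p = 0.0702), without control siRNA without LPS replicate 1 (-1.21, adjusted p = 0.0781) and among replicates 2 and 3 alone (-1.13, adjusted p = 0.00606). An antisense gene without a row in the count table overlaps Icam1 as well.

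Cd69 and Vcam1 were at the limit of detection. Cd69 (chr6:129267325-129275436, minus strand) had 0 counts in the 3 control libraries without LPS and 229 counts over the 3 with LPS, at 1.39, 6.75 and 5.10 CPM. That is at least 99.8-fold higher with LPS when 3 counts over the group are set as the floor. SF3a1 siRNA gave 1 count without LPS and 41 counts with it, at 0.151, 1.03 and 0.914 CPM. The ratio of those sums per depth was 34.3 (95% exact interval 5.82 to 1386, counting error only). The filter asks for 0.477 CPM in at least 3 libraries. Cd69 passed it only through its LPS libraries, so a rise was fixed for it by that filter and its place in the count of 7 carries no weight. Both LPS effects were called (adjusted p = 2.81e-04 and 0.0443), the latter lost without any one of 5 of the 6 libraries compared, that is all but SF3a1 siRNA with LPS replicate 1, at adjusted p values of 0.108 to 0.143. In the presence of LPS the level with SF3a1 siRNA was 6.5-fold below that with control siRNA (-2.70 ± 0.73, adjusted p = 0.0171), with no overlap between groups. Only with control siRNA did enough libraries reach the filter, so a fall was fixed here too. Vcam1 (chr3:116109949-116129688, minus strand) had 5 counts in total, 3 in 1 control library with LPS and 2 in 1 SF3a1 siRNA library with LPS. It was not tested, and no difference was detectable at this depth.

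Library replicate 1 of each group was sequenced in 2 runs and replicates 2 and 3 in 1 run. Among replicates 2 and 3 alone, all 7 members were again called higher with LPS under either siRNA, the rise of Cd69 being fixed by the filter. Cd80 and Icam1 were called higher and Cd40 lower with SF3a1 siRNA at both conditions. Cd274 kept its opposite directions, at 1.13 without LPS and -0.67 with it. Icosl was then also called lower with LPS (-0.56, adjusted p = 0.0355). With 1 library per group, the 2-run libraries allow no test of their own.

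Exon usage was compared because SF3a1 acts in splicing. In 11 libraries with exon bin counts, 50 bins of 6 members (Cd40, Cd80, Cd86, Cd274, Icosl, Icam1) passed the filter among 153624 bins. No bin of a member was called by edgeR for LPS, for SF3a1 inhibition without LPS or for SF3a1 inhibition with LPS, where 0.0801%, 0.626% and 0.492% of all bins were called (123, 961 and 756 bins). With the replicate block the calls were 285, 2115 and 1793 bins, and without control siRNA with LPS replicate 1 they were 49, 1129 and 101, with no bin of a member among them. At an unadjusted p below 0.05 there were 2, 1 and 0 member bins, and limma called none. Cd274 bin 2 (chr19:29372454-29372519, coding exon) had the lowest unadjusted p of the member bins, 0.0175, and an adjusted p of 1. With control siRNA this exon held 5.62% ± 6.91 of all Cd274 bin counts in unstimulated cells (SD, n = 3) and 1.31% ± 0.45 after LPS (n = 2). Cd274 bin 4 (chr19:29380304-29380588, coding exon) took 7.52% ± 2.69 and 18.3% ± 2.3 in the same groups. Unstimulated groups had 45 to 97 Cd274 and 12 to 109 Cd40 bin counts per library, which limits the shifts in usage that could be seen there. The LPS groups were deeper, with 808 to 2897 bin counts for Cd274 and 1773 to 28298 for Cd40. In those groups bin 7, the last exon of Cd274, took 52.0% ± 0.9 with control siRNA and 57.3% ± 7.8 with SF3a1 siRNA.

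**Figure D3:**
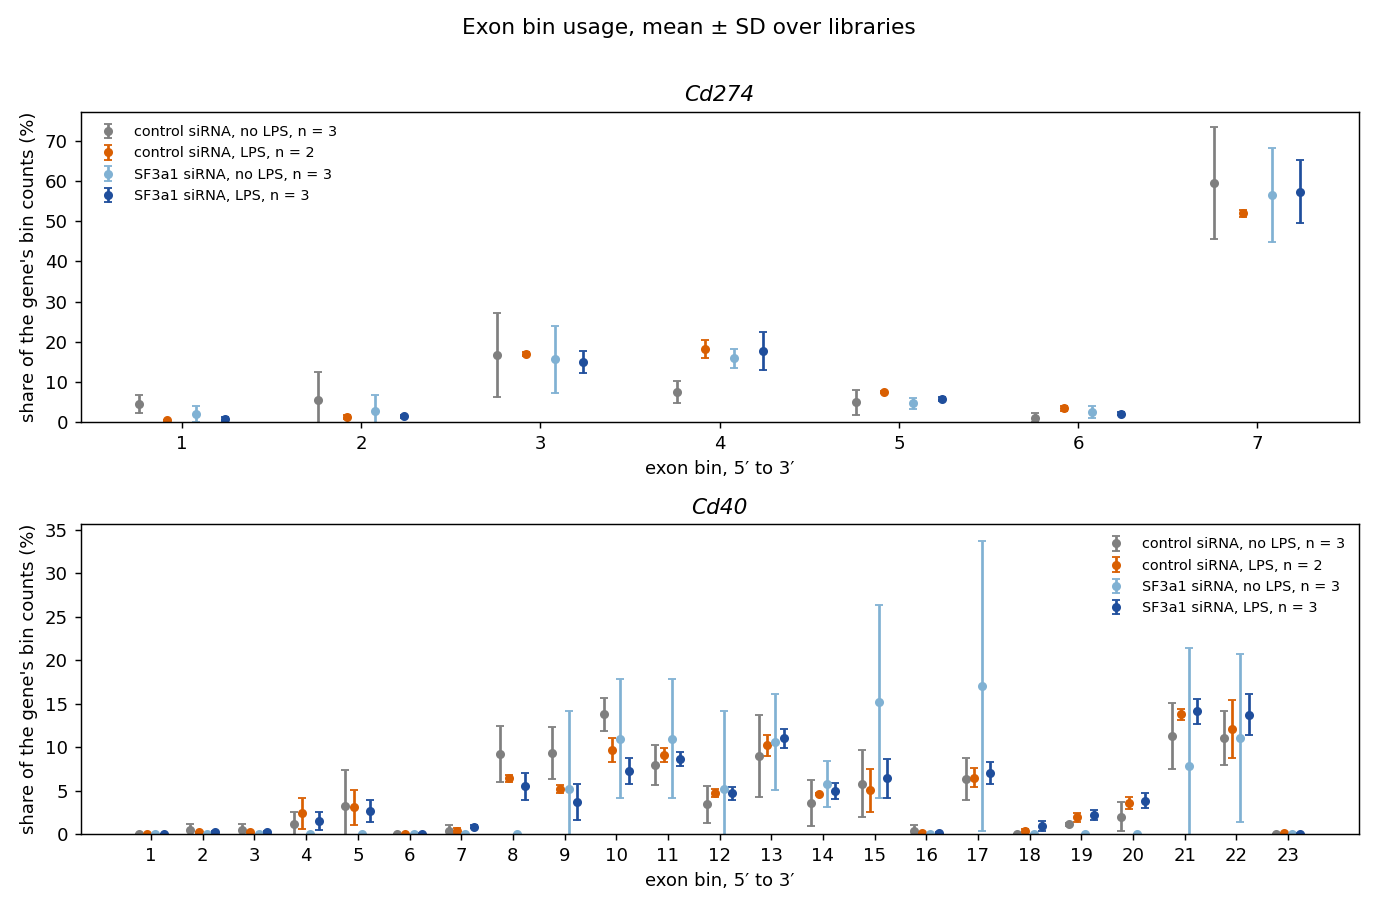
Share of each gene's exon bin counts, in percent, taken by each bin from 5′ to 3′ for Cd274 and Cd40, as mean ± SD over libraries. With LPS the last Cd274 bin held 52.0% with control siRNA and 57.3% with SF3a1 siRNA, and the unstimulated groups rest on 45 to 97 Cd274 and 12 to 109 Cd40 counts per library.

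The binding partners of the members were measured in the same cells. Of 13 partners, 11 were tested. With LPS and control siRNA 6 rose and 3 fell, and SF3a1 inhibition raised 3 and lowered 2 without LPS and raised 2 and lowered 2 with it. Over all tested genes 13.8% were called higher and 18.3% lower for LPS, 13.7% and 20.1% for SF3a1 inhibition without LPS, and 18.4% and 20.4% for SF3a1 inhibition with LPS, so that the last counts stand at about the background. S1pr1 and Cd28 passed the filter only through libraries without LPS, so a fall with LPS was fixed for them, and Icos only through control siRNA libraries, which fixed a fall with SF3a1 inhibition. The LPS calls of Itga4 and Itgb7 were lost without any one of 3 and 5 libraries, and those of Itgal, Itgax, Itgb1 and Itgb7 for SF3a1 inhibition without LPS without any one of 6, 3, 7 and 5. The rise of S1pr1 with SF3a1 inhibition in the presence of LPS was lost without replicate 2 of either LPS group (adjusted p up to 0.142). The median log2 change of the 11 for SF3a1 inhibition was 0.45 without LPS and 0.12 with it, against -0.02 and -0.04 for all tested genes. Itgal, the alpha chain of the Icam1 receptor LFA-1, was 33.8, 26.4 and 25.2 CPM with control siRNA and 340, 167 and 230 CPM with LPS. With SF3a1 siRNA it was 21.0, 15.7 and 10.9 CPM, and 54.0, 23.7 and 31.8 CPM with LPS. It fell by 2.75 on the log2 scale with SF3a1 inhibition in the presence of LPS (adjusted p = 1.25e-04), opposite to Icam1. Its partner chain Itgb2 had means of 711 ± 194 and 751 ± 72 CPM in the LPS groups (SD, n = 3; adjusted p = 0.818). S1pr1, the sphingosine phosphate receptor bound by Cd69, fell with LPS from 10.5, 9.91 and 9.75 CPM to 0.421, 0.0794 and 0.280 CPM (-5.06, adjusted p = 1.05e-05, and -5.66 without the first of these LPS libraries), a direction that the filter fixed. Under SF3a1 siRNA it went from 3.24, 7.41 and 5.43 CPM to 0.454, 1.39 and 0.914 CPM. Pdcd1, the receptor for Cd274, rose with LPS from 35.5 ± 8.8 to 159 ± 95 CPM (2.17, adjusted p = 0.00721), with replicate 1 at 50.02 CPM and the others at 217 and 211 CPM. Other receptors known from T cells were scarce, with Cd28 and Icos below 2 CPM in every group mean and Ctla4 and Cd40lg at 4 and 8 counts over all libraries.

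**Figure D4:**
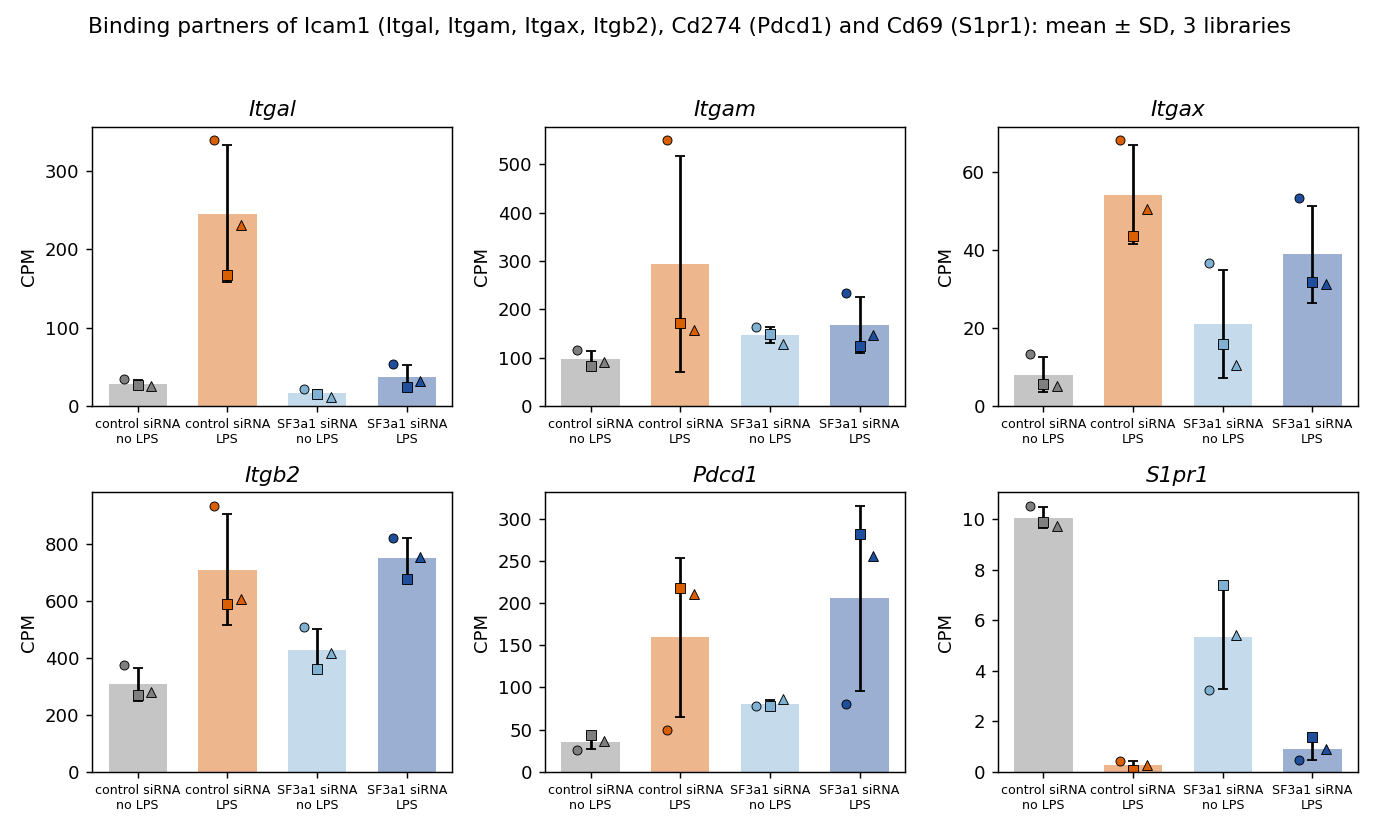
CPM of 6 partner genes in the 4 groups, as bars at the mean with SD and 1 point per library (circle, square and triangle for replicates 1, 2 and 3). Itgal was 167 to 340 CPM in the control siRNA libraries with LPS and at most 54.0 CPM in the other libraries, and S1pr1 was lowest in those same control libraries.

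Related families were described by counts. Among 26 tested integrin and leukocyte adhesion genes, 11 rose and 5 fell with LPS, and SF3a1 inhibition raised 10 and lowered 4 without LPS and raised 8 and lowered 4 with it (median log2 changes 0.48, 0.40 and 0.10, beside -0.02, -0.02 and -0.04 for all tested genes). The shares of all tested genes called in these comparisons were 13.8% higher and 18.3% lower, 13.7% and 20.1%, and 18.4% and 20.4%. Itgb3 passed the filter only through SF3a1 siRNA libraries and Icam4 only through control ones. Itga5, the fibronectin receptor alpha chain, rose with LPS from 367 ± 50 to 1891 ± 292 CPM (2.37, adjusted p = 2.16e-05) and with SF3a1 inhibition without LPS to 883 ± 226 CPM (1.27, adjusted p = 0.00254). Itga6, a laminin receptor chain, fell with LPS from 14.4 ± 1.4 to 2.61 ± 0.22 CPM (-2.46, adjusted p = 1.19e-05) and was higher with SF3a1 siRNA in the presence of LPS, at 7.85 ± 2.05 CPM (1.59, adjusted p = 4.88e-04). Itgax, the alpha chain of another Icam1-binding integrin, rose with LPS from 8.02 ± 4.45 to 54.1 ± 12.6 CPM (2.74, adjusted p = 8.23e-04, and 3.34 without control siRNA without LPS replicate 1).

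The B7 and CD28 family outside the members was split. Of 7 tested genes 2 rose and 2 fell with LPS, and SF3a1 inhibition raised 2 and lowered 2 in either condition, where 32.1%, 33.8% and 38.8% of all tested genes were called in either direction. Cd28 and Icos, both in this family, passed the filter only through libraries where they are high. Vsir, an inhibitory B7-like protein, went from 168 ± 49 to 562 ± 70 CPM with SF3a1 inhibition without LPS (1.74, adjusted p = 0.00904) and from 110 ± 87 to 514 ± 102 CPM with it (2.22, adjusted p = 0.00203). In the latter control group replicate 1 stood at 210.1 CPM and the others at 53.8 and 65.8 CPM, and without it the change was 3.10 (adjusted p = 2.74e-05). Cd276, another B7 homologue, fell with LPS from 137.4 ± 11.1 to 56.1 ± 14.2 CPM (-1.30, adjusted p = 2.65e-04) and was higher after SF3a1 inhibition with LPS, at 99.2 ± 13.0 CPM (0.83, adjusted p = 0.00560). Cd200r1, the receptor for the inhibitory ligand Cd200, rose with LPS from 4.23 ± 1.37 to 10.97 ± 1.30 CPM (1.38, adjusted p = 0.00217).

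Cd40 signals through TRAF adaptors, and 8 of 14 genes of that route rose with LPS and none fell, while SF3a1 inhibition raised 1 and lowered 1 without LPS and raised 3 and lowered 3 with it (median log2 changes 0.54, 0.14 and -0.26, beside -0.02, -0.02 and -0.04 for all tested genes). For LPS 13.8% of all tested genes were called higher and 18.3% lower, and for SF3a1 inhibition 13.7% and 20.1% without LPS and 18.4% and 20.4% with it, the latter about the share of this route. The fall of Tnfaip3 with SF3a1 inhibition and LPS (-0.68, adjusted p = 0.0892) was lost without any one of 8 of the 12 libraries (adjusted p up to 0.290). Traf1, an adaptor, rose with LPS from 19.5 ± 7.2 to 286 ± 41 CPM (3.87, adjusted p = 5.76e-06). It stood at 220 ± 5 CPM with SF3a1 siRNA and LPS, a difference that was not called (adjusted p = 0.416). Tnfaip3, which restrains NF-kappaB, rose from 8.90 ± 1.82 to 142 ± 35 CPM (3.99, adjusted p = 1.54e-06), and Nfkb2 from 70.9 ± 12.4 to 339 ± 24 CPM (2.26, adjusted p = 7.09e-06). Birc3, a ubiquitin ligase of the complex, rose with LPS (1.55, adjusted p = 6.53e-05) and fell with SF3a1 inhibition in its presence (-0.78, adjusted p = 0.00715). Of these 4 genes, the largest siRNA difference with LPS was that of Birc3.

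Of 7 tested TNF superfamily costimulators, 6 were called higher with LPS, where 13.8% of all tested genes were. Tnfsf4, Tnfsf15 and Tnfrsf9 passed the filter only through their LPS libraries, so a rise was fixed for them and the count carries no weight. SF3a1 inhibition raised 2 and lowered 1 without LPS and raised 1 and lowered 2 with it, against 13.7% and 20.1%, then 18.4% and 20.4%, of all tested genes. Tnfrsf4 passed only through SF3a1 siRNA libraries. Without LPS the 1 fall, that of Tnfsf9, was lost without any one of 6 libraries and the rise of Tnfrsf9 without any one of 4. Tnfrsf9, also called 4-1BB, went from 0.199 ± 0.061 to 11.7 ± 6.4 CPM with LPS (5.84, adjusted p = 8.77e-06). Its ligand Tnfsf9 went from 18.9 ± 2.9 to 38.2 ± 3.2 CPM (1.01, adjusted p = 0.0233) and was lower after SF3a1 inhibition with LPS, at 17.9 ± 8.8 CPM (-1.10, adjusted p = 0.0140). Tnfsf8, the ligand of Tnfrsf8, stood at 2.10 ± 1.39 CPM without LPS and 7.61 ± 2.92 CPM with it (1.82, adjusted p = 0.0984), a call that was lost without any one of 8 of the 12 libraries (adjusted p up to 0.246). In the SLAM and CD2 family 3 of 4 tested genes were called higher with LPS (13.8% of all tested genes), a rise that was fixed by the filter for Slamf8, which passed only through its LPS libraries. SF3a1 inhibition raised 2 without LPS (13.7%) and lowered 1 with LPS (20.4%). Ly9, a homophilic receptor, went from 63.4 ± 5.3 to 93.1 ± 6.9 CPM with LPS (0.56, adjusted p = 0.00581) and to 98.9 ± 10.2 CPM with SF3a1 siRNA alone (0.64, adjusted p = 0.00280).

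The genes most like each member across the 12 libraries were found by Pearson r of log2 CPM among genes averaging 5 CPM or more. These values describe the pattern over 4 groups, which the libraries of a group share. For Cd40 they were Oas1b (0.998), Irgm2 (0.994) and Ifih1 (0.993), and for Cd86 Ifi44l (0.966), Trim34a (0.958) and Phf11d (0.957), most of them genes known from the interferon response. Cd69 had Ifnb1, which encodes interferon beta (0.989), Arhgef3 (0.987) and A530040E14Rik (0.975). Its counts without LPS were 0 over the control siRNA group and 1 over the SF3a1 siRNA group, so its r largely reflects presence with LPS. Cd80 was closest to Cd44 (0.967), Fosl1 (0.965) and Rabgef1 (0.960), and Icam1 to Igsf3 (0.965), Tti2 (0.962) and Lrp10 (0.957). Cd274 had Ccrl2 (0.993), Ccl5 (0.989) and Cish (0.988), and Icosl had Il4i1 (0.966), Rab3ip (0.964) and Cd300lf (0.963). Among the members themselves, r was 0.931 between Cd40 and Cd86 and 0.914 between Cd80 and Icam1, but 0.481 between Cd40 and Cd80 and 0.371 between Cd80 and Cd86.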

How the data were processed

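RNA of 12 RAW264.7 cultures was sequenced by the authors on an Ion Proton after polyA selection. Reads of at least 30 nt were aligned by the authors to mm10 with GSNAP, unique alignments were kept, and the deposited gene counts were made with htseq-count from HTSeq. The deposited exon bin counts were made with the counting script of DEXSeq. Control siRNA with LPS replicate 3 was not analysed here for exon bins. Between 17.8% and 27.2% of reads per library fell on no gene, the highest in SF3a1 siRNA without LPS replicate 1, and were left out.

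Genes were tested with edgeR 4.0.16 (R 4.3.3): TMM scaling, filterByExpr, 1 mean per group, Benjamini-Hochberg over all tested genes, called at 0.1 or less. CPM use TMM-scaled library sizes. Exon usage was tested with diffSpliceDGE. DESeq2 1.42.0 and limma 3.58.1 were alternatives. Per the study's methods, siRNA treatments and exposures were done in triplicate, and how separate the 3 were is not stated. The p-values measure the spread between libraries of 1 cell line. In the fit without a block, that spread includes the difference of replicate 1, sequenced in 2 runs, from replicates 2 and 3. With 3 against 3 an exact permutation test cannot go below 0.1.

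Same-numbered libraries deviated from their group means together (Pearson r over genes 0.143 to 0.600, median 0.356, in 18 pairs). The 36 pairs of different number had r of -0.523 to 0.345, median -0.308. Every pair of a replicate 1 with a replicate 2 or 3 was negative. Pairs of a replicate 2 with a replicate 3 had r of 0.0401 to 0.345. That range overlaps the 0.143 to 0.458 of same-numbered pairs of those replicates. The data thus set replicate 1 apart but do not settle whether replicates 2 and 3 pair by number. The fit with the replicate number as a block is given where it changes a call. The members and gene lists were chosen with earlier results of these data known. List genes are named where called in 1 of 3 comparisons with a mean of at least 5 CPM, at most 4 per list by size of change; partners are named by level. Genes named outside this rule (list genes called for the interaction, cell type markers and genes that passed the filter through 1 side of a comparison) were chosen after their values were seen.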

Additional observations from a re-analysis of the deposited data

Results flagged for a closer look

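The effect of LPS differed between the siRNAs, by the interaction term in edgeR, for 2 members and for 9 other genes of the partner, family and cell type marker lists. That term called 520 of the 14983 tested genes, or 3.47%. On the log2 scale the LPS effect was smaller with SF3a1 siRNA for Cd80 (interaction -3.01, adjusted p = 0.00189) and for Cd274 (interaction -1.80, adjusted p = 0.0182). The same held for Slamf9 (-3.65, adjusted p = 0.0269, and -3.00 without SF3a1 siRNA without LPS replicate 2), Fcgr1 (-2.83, adjusted p = 0.00149), Tnfrsf8 (-2.02, adjusted p = 0.0232) and Cd44 (-1.06, adjusted p = 0.0136), the gene most like Cd80. For Itgal, the alpha chain of the Icam1 receptor, the interaction was -1.91 (adjusted p = 0.0576), for Lck -1.65 (adjusted p = 0.0546) and for Cd47 -0.82 (adjusted p = 0.0865). LPS lowered Itga6 and S1pr1, and their interactions were 1.45 (adjusted p = 0.0461) and 2.47 (adjusted p = 0.0828), the latter 3.06 without control siRNA with LPS replicate 1. The Itgal, Lck and Itga6 calls were each lost without any one of 6 libraries, that of S1pr1 without any one of 9 and that of Cd47 without any one of 10. Those of Cd80, Cd274, Slamf9, Fcgr1, Tnfrsf8 and Cd44 were lost under none of the 12 omissions.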

How the results depend on the processing

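Of 620 values for 33 member results under the alternatives, 603 kept their direction and side of the threshold, 9 lost the call, 8 gained one and 0 changed direction. Of the 83 results of other named genes, 130 of 1565 values lost the call and 0 changed direction. Interaction calls were 520 genes and became 966 with DESeq2, 930 with no filter on low counts, 1756 with the replicate block and 1012 among replicates 2 and 3, the last chosen after seeing the data. Without the filter 5 members were called for the interaction (Cd80, Cd274, Cd40, Icosl and Icam1). LPS with SF3a1 siRNA called 1598 genes and 3115 with the replicate block, and the exon bin calls of 123 for LPS, 961 for SF3a1 inhibition without LPS and 756 with LPS became 285, 2115 and 1793. Among the member results and the called results of other named genes the block changed no call but that of the Cd40 interaction, and Itgb2 and Traf1 for SF3a1 inhibition with LPS were not called with it (adjusted p = 0.473 and 0.231). Leaving out each library gave 273 to 711 genes for the interaction (285 without SF3a1 siRNA without LPS replicate 2, 273 without its replicate 3, 338 and 292 without control siRNA without LPS replicates 2 and 3) and 1050 to 2005 for LPS with SF3a1 siRNA (1050 and 1058 without SF3a1 siRNA without LPS replicates 1 and 2). Exon bin calls were 49 to 158 for LPS (49 without control siRNA with LPS replicate 1, 75 and 70 without control siRNA without LPS replicates 2 and 3), 527 to 1131 for SF3a1 inhibition without LPS (532 and 527 without control siRNA without LPS replicates 2 and 3, 531 and 617 without SF3a1 siRNA without LPS replicates 2 and 3) and 101 to 887 with LPS (101 and 489 without control siRNA with LPS replicates 1 and 2, 461 and 443 without SF3a1 siRNA with LPS replicates 2 and 3), and no bin of a member was called. Scaling by library total alone moved the median of all genes by -0.19 and -0.13 for LPS with control and SF3a1 siRNA, and the share of calls that were higher from 42.9% to 27.6% and from 61.9% to 40.0%. Of the interaction calls 44.2% were higher, against 345 of 638 with that scaling, 980 of 1756 with the block, 172 of 478 with median-of-ratios scaling and 89 of 273 without SF3a1 siRNA without LPS replicate 3. Depth limits Cd69, Vcam1 and the exon bins of unstimulated cells. The causes were not tested.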
